A study of Sus scrofa with 6 samples.

Results

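CDKN1A, which encodes the cell cycle inhibitor p21, and 8 further classical target genes of the transcription factor p53 were examined in the left ventricular (LV) myocardium of failing (Dox-injected) and non-failing (PBS-injected) piglets. The genes were listed for their known role as CDKN1A, MDM2, GADD45A, GADD45B, BAX, CCNG1, BTG2, SESN1 and PMAIP1. Earlier results of these data were known when the list was chosen. Of these 9 genes, 8 were measured, at 10 probe sets, among 6765 genes named by a single symbol and 23999 probe sets tested. MDM2, which encodes the ubiquitin ligase that degrades p53, was not analysed here.

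The Dox-injected group consisted of 3 Large White piglets that received a single intravenous injection of doxorubicin (Dox) at 2 mg/kg, and the controls were 3 Large White piglets injected with PBS. By the sample labels the injection was given at 8 days of age and the LV free wall was taken 3 weeks later, at 28 days, whereas the methods of the study place the injection slightly earlier and the harvest slightly later. Total RNA of each animal was hybridized to 1 Affymetrix Porcine Genome Array, and the values are MAS5 signals, a brightness per probe set on a linear scale. The piglets are intact animals with no genetic change, the drug reached the whole body, and no time point before the harvest was measured.

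Doxorubicin is an anthracycline that poisons topoisomerase II and breaks DNA, and its use as an anticancer drug is limited by damage to the heart. Broken DNA activates the kinases ATM and CHEK2, which stabilize p53, and p53 then switches on genes that hold the cell cycle, repair DNA, quench oxidants or start apoptosis. p21 is the best known of these products: it binds cyclin-dependent kinases (CDKs) and the replication clamp PCNA, and in the heart it is linked to the exit of cardiomyocytes from the cell cycle after birth. Several of these genes also respond to other stresses without p53, and the roles given here are those known from human and mouse cells.

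Across the arrays the median signal lay between 13.6 and 15.7 in Dox-injected and between 16.9 and 17.9 in PBS-injected piglets, with the trimmed mean of every array scaled to the same level. The geometric mean signal of 9 hybridization control probe sets, for RNA added in fixed amounts before hybridization, was 1087, 1004 and 1395 in Dox-injected and 796, 829 and 875 in PBS-injected piglets, so that every Dox array was brighter than every PBS array for these controls. For 12 poly-A control probe sets it was 200, 199 and 207 in Dox-injected and 242, 181 and 165 in PBS-injected piglets, with overlap. Of 12 cardiomyocyte markers 9 were measured, and none had a signal below 751 on any array. Their summed signal was 51102 to 66542 in Dox-injected and 42461 to 50910 in PBS-injected piglets. The summed signal of 9 of 13 leukocyte markers was 449 to 1344 in Dox-injected and 309 to 418 in PBS-injected piglets, and that of 6 of 8 fibroblast markers was 1137 to 2757 in Dox-injected and 2883 to 4673 in PBS-injected piglets. For 8 of 8 endothelial markers it was 1456 to 1475 in Dox-injected and 1540 to 2249 in PBS-injected piglets. No marker of these lists was at 0. In bulk tissue, fewer cells of a type and less RNA per cell cannot be told apart, and the part of cell composition in the values below was not tested. The number of arrays limits the precision, and with 3 piglets per group the smallest two-sided p of an exact permutation test is 0.1.

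CDKN1A was the p53 target whose groups were furthest apart relative to the spread between animals. The CDKN1A probe set had signals of 810.8, 698.2 and 835.7 in Dox-injected piglets, against 275.0, 213.8 and 311.8 in PBS-injected piglets. All 3 Dox arrays lay close together and well above all 3 PBS arrays. The means were 782 ± 73.3 in Dox-injected and 267 ± 49.5 in PBS-injected piglets (SD, n = 3 each), and the ratio of geometric means was 2.96. On the log2 scale the difference, Dox minus PBS, was 1.56 with a standard error of 0.20 and a 95% confidence interval of 1.11 to 2.02. In limma the unadjusted p of 3.57e-05 ranked 2 among 23999 probe sets, yet after Benjamini-Hochberg adjustment over all of them p was 0.428, so CDKN1A did not pass the threshold of 0.05. The exact permutation test gave p = 0.1, the smallest that the design allows.

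With each array left out in turn, the log2 difference of CDKN1A stayed between 1.41, without PBS replicate 2, and 1.68, without PBS replicate 3. After scaling to the hybridization controls it was 1.10, and after scaling to the cardiomyocyte markers it was 1.27. Every Dox array remained above every PBS array for CDKN1A under these scalings and under the 3 others tried. As deposited, the summed cardiomyocyte, leukocyte, fibroblast and endothelial markers also separated the groups, and their part in the CDKN1A difference was not tested. In 5 of 9 cardiomyocyte and 3 of 9 leukocyte markers every Dox array lay above every PBS array, beside 9.06% of named genes. In 3 of 6 fibroblast and 1 of 8 endothelial markers every Dox array lay below every PBS array, beside 10.4%. The leukocyte markers were S100A8, S100A9 and S100A12, and the endothelial marker was CDH5. Of those 5 cardiomyocyte markers, TNNT2, MYL3, TNNC1 and PLN overlapped after quantile normalization and MYH7 did not.

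**Figure D1:**
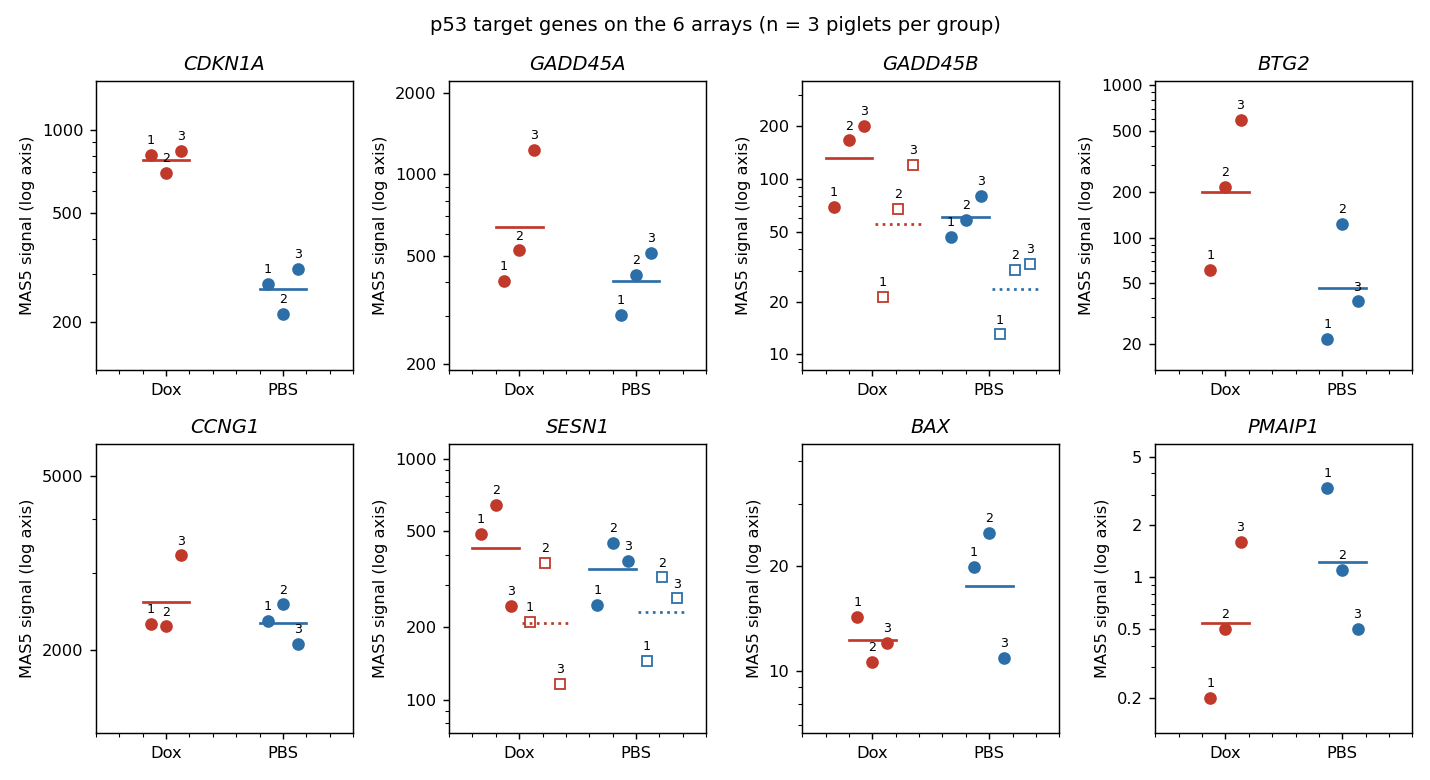
MAS5 signal (log axis) of 8 p53 target genes on each of 6 arrays, Dox-injected piglets in red and PBS-injected piglets in blue, with the replicate number beside each point. Filled circles and solid lines are the brightest probe set of a gene and its geometric mean, open squares and dotted lines a further probe set; CDKN1A is the only gene in which the groups do not overlap, with 698.2 to 835.7 in Dox-injected and 213.8 to 311.8 in PBS-injected piglets.

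The GADD45 genes encode small proteins that bind stress kinases, PCNA and the CDK1 complex, and link DNA damage to growth arrest and repair. GADD45A had signals of 405.4, 524.2 and 1225.5 in Dox-injected piglets, against 303.4, 425.2 and 513.5 in PBS-injected piglets. Dox replicate 3 stood far above the other arrays, and Dox replicate 1 lay below PBS replicates 2 and 3. The log2 difference was 0.66 with a standard error of 0.40 and an interval of -0.24 to 1.56 (adjusted p = 0.596 in limma; exact permutation test, p = 0.4), and without Dox replicate 3 it was 0.19.

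GADD45B was measured at a pair of probe sets with the same order of arrays in the Dox-injected group. The brighter GADD45B probe set had signals of 69.4, 165.7 and 200.7 in Dox-injected piglets, against 46.9, 58.7 and 80.2 in PBS-injected piglets. The dimmer one had 21.3, 67.6 and 119.7 in Dox-injected piglets, against 13, 30.2 and 32.9 in PBS-injected piglets. At both, Dox replicates 2 and 3 were above every PBS array while Dox replicate 1 lay among the PBS arrays. The log2 difference of the brighter probe set was 1.13 with a standard error of 0.41 and an interval of 0.19 to 2.07 (adjusted p = 0.521 in limma; exact permutation test, p = 0.2). At the dimmer probe set it was 1.25 with a standard error of 0.63 (adjusted p = 0.552 in limma; exact permutation test, p = 0.3). Leaving out Dox replicate 3 gave 0.83 for GADD45B at the brighter probe set, and leaving out Dox replicate 1 gave 1.59.

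BTG2, which encodes an antiproliferative protein that recruits the CCR4-NOT deadenylase to mRNA, had the widest spread within groups of the 7 listed p53 targets read above background. Its signals were 61.2, 214.9 and 590.0 in Dox-injected piglets, against 21.6, 123.6 and 38.1 in PBS-injected piglets. Dox replicates 2 and 3 exceeded all PBS arrays, and PBS replicate 2 exceeded Dox replicate 1. The BTG2 signal of Dox replicate 3 was 9.64 times that of Dox replicate 1, more than the ratio of 4.24 between the geometric means of the groups. The log2 difference was 2.08 with a standard error of 0.85 and an interval of 0.15 to 4.02 (adjusted p = 0.521 in limma; exact permutation test, p = 0.2). Leaving out Dox replicate 3 gave 1.30 for BTG2, and leaving out Dox replicate 1 gave 2.93.

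CCNG1 encodes cyclin G1, which binds a phosphatase and dampens p53 through MDM2. Its signals were 2295.7, 2269.3 and 3296.2 in Dox-injected piglets, against 2333.1, 2547.0 and 2073.1 in PBS-injected piglets. Dox replicates 1 and 2 lay inside the range of the PBS arrays, and Dox replicate 3 lay above it. The log2 difference was 0.16 with a standard error of 0.19 and an interval of -0.27 to 0.59 (adjusted p = 0.784 in limma; exact permutation test, p = 0.7). Its sign was negative under quantile normalization, under cyclic loess, without Dox replicate 3 and after both scalings to controls or markers, and after scaling to the hybridization controls all Dox arrays were below all PBS arrays, with a difference of -0.31.

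SESN1 encodes sestrin 1, which restrains the growth kinase mTORC1 and supports antioxidant defence. The brighter SESN1 probe set had signals of 488.1, 641.0 and 245.5 in Dox-injected piglets, against 248.4, 447.8 and 377.9 in PBS-injected piglets. Here Dox replicate 3, the highest array for GADD45A, GADD45B and BTG2, was the lowest of all 6. The further SESN1 probe set gave 211.5, 369.8 and 116.9 in Dox-injected piglets, against 145.5, 322.0 and 263.6 in PBS-injected piglets, again with Dox replicate 3 lowest. The log2 differences were 0.29 with a standard error of 0.37 at the brighter probe set (adjusted p = 0.801 in limma; exact permutation test, p = 0.6) and -0.14 with a standard error of 0.44 at the other (adjusted p = 0.924 in limma; exact permutation test, p = 0.8). The probe sets of SESN1 thus differed in sign, and for the brighter one the difference was 0.69 without Dox replicate 3.

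BAX and PMAIP1 encode proteins that open the outer mitochondrial membrane and start apoptosis, BAX as the pore and PMAIP1 (NOXA) as a BH3-only protein that neutralizes MCL1. BAX had signals of 14.3, 10.6 and 12 in Dox-injected piglets, against 19.9, 24.9 and 10.9 in PBS-injected piglets. PBS replicates 1 and 2 were the highest, and PBS replicate 3 lay among the Dox arrays. The BAX log2 difference was -0.52 with a standard error of 0.41 and an interval of -1.46 to 0.41 (adjusted p = 0.672 in limma; exact permutation test, p = 0.3). PMAIP1 had signals of 0.2, 0.5 and 1.6 in Dox-injected piglets, against 3.3, 1.1 and 0.5 in PBS-injected piglets. These lie at the level of the Tag probe sets of the array, designed on artificial sequences that no pig transcript matches, whose highest signal was 2.5 to 6.3 per array. On 5 of 6 arrays PMAIP1 was at or below that level, so no fold is read from it.

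Over the 8 genes, 6 had a log2 difference above 0 and 2 below, with a median of 0.47, or 6 above and 1 below with a median of 0.66 without PMAIP1, whereas over all named genes 2979 lay above 0 and 3786 below, with a median of -0.07. At the threshold of the study, a fold of at least 2 with an adjusted p of at most 0.05, limma called 0 of the 8 genes and 0% of the 23999 probe sets. Before adjustment, 3 of the 8 genes (CDKN1A, GADD45B and BTG2) were higher in Dox-injected piglets at a p of at most 0.05, beside 4.92% of named genes, and 0 of 8 were lower at such a p, beside 6.61%. In 1 of the 8, CDKN1A, every Dox array lay above every PBS array, beside 9.06% of named genes, and in 0 of 8 below, beside 10.4%. CDKN1A kept an unadjusted p of at most 0.05 in 19 of 19 alternative tests, GADD45B in 9 of 19 and BTG2 in 10 of 19. Without Dox replicate 3 the genes at an unadjusted p of at most 0.05 were CDKN1A and SESN1, both with a higher signal in Dox-injected piglets, and after scaling to the hybridization controls CDKN1A alone remained, with 4 of the 8 differences above 0 and a median of 0.01, where the median over all named genes was -0.53. Over all 23999 probe sets, 2290 had such a p as deposited, 1856 without Dox replicate 3 and 4935 after scaling to the hybridization controls.

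**Figure D2:**
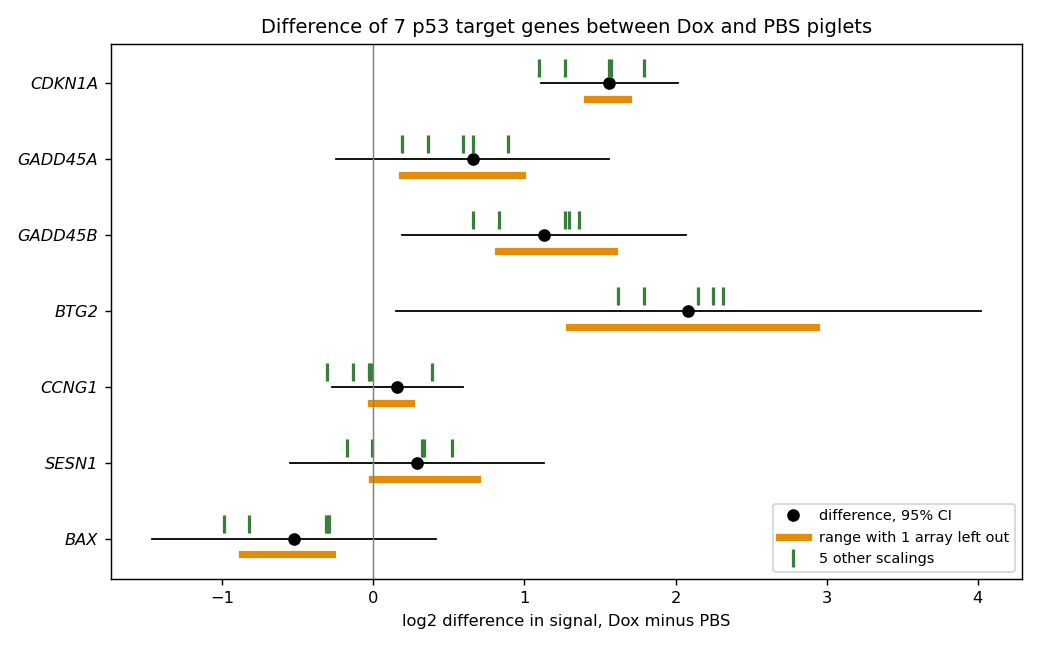
Log2 difference in signal, Dox minus PBS, of 7 p53 target genes at their brightest probe set, with the 95% confidence interval as a thin line, the range with 1 array left out as an orange bar and 5 other scalings as green ticks. CDKN1A lies between 1.10 and 1.79 under the other scalings and with 1 array left out, with an interval of 1.11 to 2.02. CCNG1 and SESN1 change sign with the scaling or the array left out, and the intervals of GADD45A, CCNG1, SESN1 and BAX include 0.

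The p53 targets differed in their pattern over the individual arrays. Dox replicate 3 gave the highest signal in 5 of the 8 genes (CDKN1A, GADD45A, GADD45B, CCNG1 and BTG2), or 62.5%, beside 24.75% of all named genes. For CDKN1A the signal of Dox replicate 3 was 1.03 times that of Dox replicate 1, and the ratio was 0.84 for BAX, 1.44 for CCNG1, 0.50 and 0.55 for the SESN1 probe sets, 3.02 for GADD45A, 2.89 and 5.62 for the GADD45B probe sets and 9.64 for BTG2. Within the PBS-injected group, replicate 1 was lowest for GADD45A, for both GADD45B probe sets, for BTG2 and for both SESN1 probe sets. The cardiomyocyte markers also peaked on Dox replicate 3, in 8 of 9 genes, and whether this bears on the p53 targets was not tested.

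**Figure D3:**
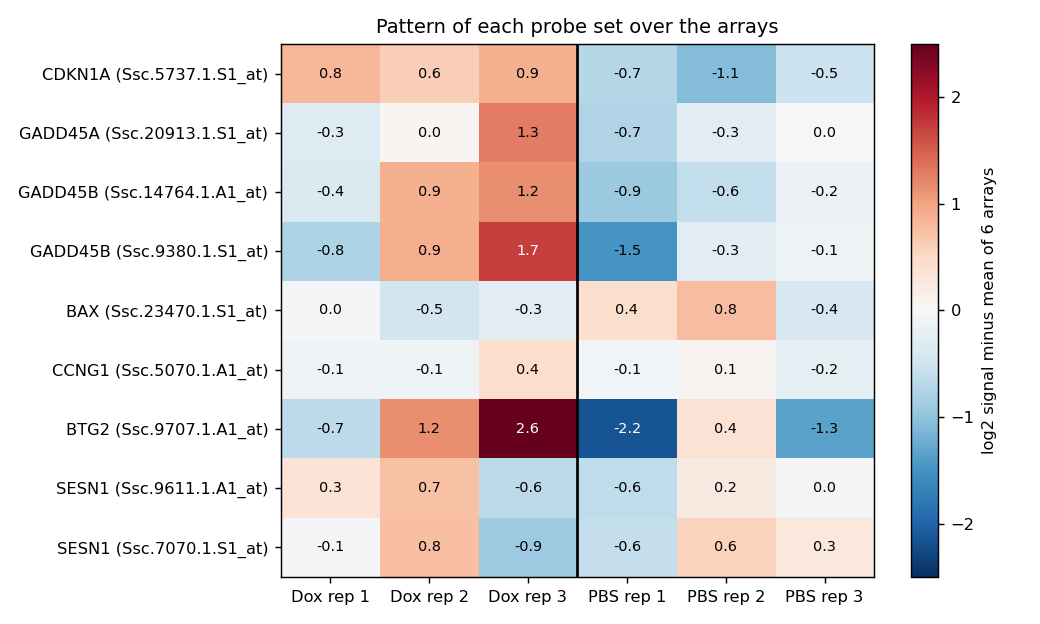
Log2 signal of 9 probe sets of 7 p53 target genes on each array, as the distance from the mean of the 6 arrays (colour scale and printed values, Dox arrays left of the black line). CDKN1A is evenly high on all Dox arrays, GADD45A, GADD45B and BTG2 peak on Dox replicate 3, and SESN1 is lowest there.

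The kinases, cyclins and other inhibitors that act with p21 were read from a list of 23 genes, of which 10 were measured. Their log2 differences were above 0 in 3 and below 0 in 7, with a median of -0.43 beside -0.07 over all named genes. None passed after adjustment. An unadjusted p of at most 0.05 was found for 1 gene with a higher signal in Dox-injected piglets, beside 4.92% of named genes, and for 4 genes with a lower signal, beside 6.61%. In 5 of 10 every Dox array lay below every PBS array, beside 10.4% of named genes. Without 3 genes at background on most arrays, CCNA2 among them, 7 genes remained with a median of -0.54. Of these 3 were lower at that p, beside 424 of 5863 named genes under the same filter. In 4 every Dox array lay below every PBS array, beside 657 of 5863, and in 1, CCND2, above, beside 568. CCNB1, which encodes the mitotic cyclin B1, had 31.1, 52.7 and 13.2 in Dox-injected piglets, against 293.8, 103.0 and 93.1 in PBS-injected piglets. Even the highest Dox array was below the lowest PBS array, and the log2 difference was -2.34 with a standard error of 0.58 (adjusted p = 0.521 in limma). PCNA, the sliding clamp of DNA polymerase to which p21 binds and itself a p53 target, had 257.8, 206.9 and 216.6 in Dox-injected piglets, against 620.8, 387.3 and 345.3 in PBS-injected piglets. Its log2 difference was -0.95 with a standard error of 0.25 (adjusted p = 0.521 in limma).

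CDK2, the S phase kinase that p21 inhibits, had 115.2, 111.5 and 51.2 in Dox-injected piglets, against 258.0, 150.9 and 151.1 in PBS-injected piglets, a log2 difference of -1.05 with a standard error of 0.37 (adjusted p = 0.521 in limma). CCNA2, which encodes cyclin A2, had 2.1, 1.4 and 2.6 in Dox-injected piglets, against 20.5, 4.6 and 3.3 in PBS-injected piglets. With 5 of 6 CCNA2 signals at the level of the Tag probe sets no fold is read. PBS replicate 1 was the highest array for CCNB1, PCNA, CDK2 and CCNA2, and without it the log2 difference of PCNA was -0.69. For CCNB1, PCNA and CDK2 the groups stayed apart under all 5 other scalings. As deposited, the summed fibroblast and endothelial markers were likewise lower on every Dox array. The fibroblast markers were at 1137 to 2757 in Dox-injected and 2883 to 4673 in PBS-injected piglets. The endothelial markers were at 1456 to 1475 in Dox-injected and 1540 to 2249 in PBS-injected piglets. Of the 8 endothelial markers taken singly, CDH5 alone was lower on every Dox array, beside 10.4% of named genes. The part of cell composition in CCNB1, PCNA, CDK2 and CCNA2 was not tested.

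CCND2, which encodes cyclin D2, went the other way from these cell cycle genes. It had 344.3, 578.9 and 1385.1 in Dox-injected piglets, against 210.5, 304.1 and 320.3 in PBS-injected piglets, so that all Dox arrays were above all PBS arrays and Dox replicate 3 was again the highest. The log2 difference was 1.25 with a standard error of 0.45 (adjusted p = 0.521 in limma), and 0.71 without Dox replicate 3. After scaling to the hybridization controls or to the cardiomyocyte markers the CCND2 signals of the groups overlapped. Among the other CDK inhibitors, CDKN2D, which encodes p19, had 66.7, 47.9 and 49.4 in Dox-injected piglets, against 74.9, 80.3 and 81.5 in PBS-injected piglets, lower on every Dox array, with a log2 difference of -0.54 and a standard error of 0.24 (adjusted p = 0.523 in limma), and with overlap after median centring. CDKN1B, which encodes p27, had a log2 difference of -0.31 (adjusted p = 0.820 in limma), and the range without each array ran from -0.62 to 0.22.

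**Figure D4:**
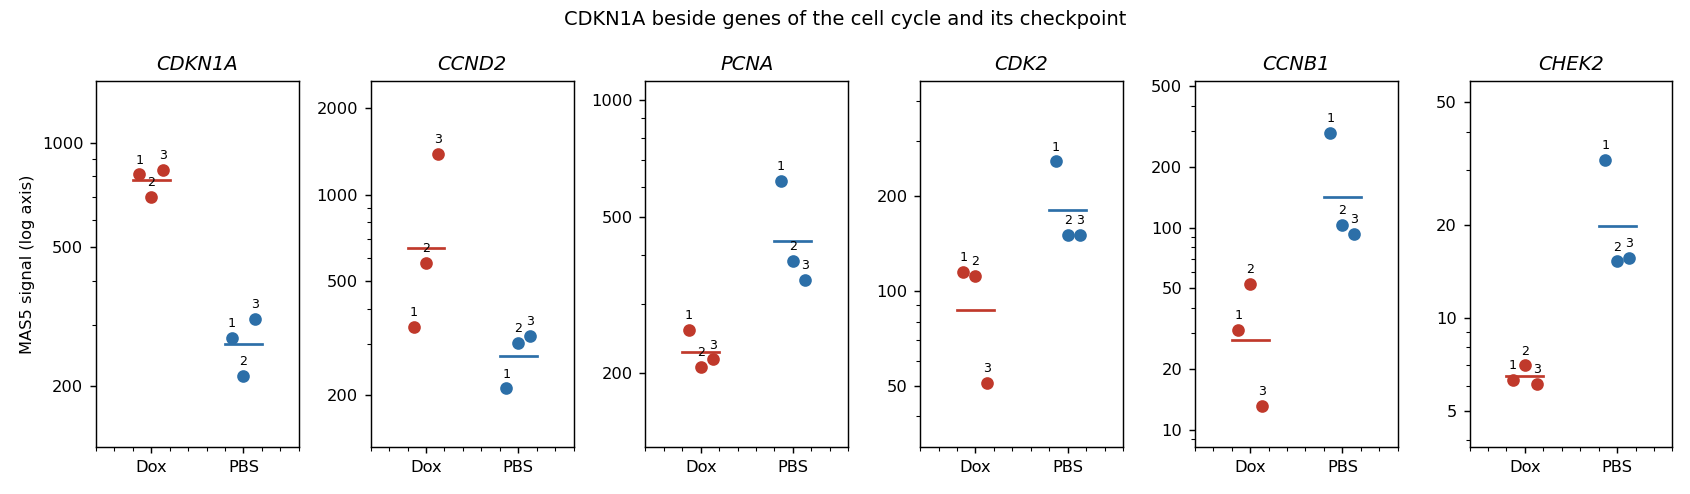
MAS5 signal (log axis) of CDKN1A and of 5 genes of the cell cycle and its checkpoint on each array, Dox-injected piglets in red and PBS-injected piglets in blue, with replicate numbers and with lines at the geometric means. CDKN1A and CCND2 are higher, and PCNA, CDK2, CCNB1 and CHEK2 lower, on every Dox array than on every PBS array.

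A list of 44 further p53 target genes, of which 23 were measured, showed no common direction. Of these 12 lay above 0 and 11 below, with a median log2 difference of 0.06. Without PLK3, SFN and LIF, at background on at least 4 of 6 arrays, 9 lay above 0 and 11 below, with a median of -0.03. Over all named genes 2979 lay above 0 and 3786 below, with a median of -0.07. At an unadjusted p of at most 0.05 in limma, 2 of 23 were higher (ATF3 and RPS27L), beside 4.92% of named genes. At such a p 1 of 23 was lower (PCNA), beside 6.61%, and 0 passed after adjustment. ATF3, which encodes a stress-induced transcription factor, had 75.4, 1115.5 and 498.3 in Dox-injected piglets, against 32.6, 167.9 and 38.1 in PBS-injected piglets. Dox replicate 1 lay below PBS replicate 2, as it did for BTG2, and the log2 difference was 2.55 with a standard error of 0.96 (adjusted p = 0.521 in limma; exact permutation test, p = 0.2). Without Dox replicate 2 the ATF3 difference was 1.71, and without Dox replicate 1 it was 3.65.

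RPS27L, which encodes a ribosomal protein induced by p53 in human cells, had 1650.6, 1601.2 and 1633.2 in Dox-injected piglets, against 1029.4, 1338.7 and 1371.2 in PBS-injected piglets. PHLDA3, which encodes an inhibitor of AKT, had 175.5, 139.9 and 138.3 in Dox-injected piglets, against 112.6, 119.4 and 108.3 in PBS-injected piglets. For both genes the groups did not overlap as deposited, and the log2 differences were small, 0.40 for RPS27L (adjusted p = 0.521 in limma) and 0.41 for PHLDA3 (adjusted p = 0.551 in limma). After scaling to the hybridization controls both were slightly negative, -0.07 for RPS27L and -0.06 for PHLDA3. LIF, which encodes a cytokine, was named by the same rule but had 5 of 6 signals at the level of the Tag probe sets. FAS, which encodes a death receptor, had 7.0, 11.5 and 10.2 in Dox-injected piglets, against 6.6, 5.4 and 4.9 in PBS-injected piglets, with a log2 difference of 0.74 (adjusted p = 0.586 in limma), and its groups overlapped after scaling to the hybridization controls.

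Of 25 genes listed for the regulators upstream of these targets, 12 were measured, 7 with a difference above 0 and 5 below, with a median of 0.13. In 4 of 12 (NPM1, RPL11, RPL5 and KAT5) every Dox array lay above every PBS array, beside 9.06% of named genes. In 2 of 12 (CHEK1 and CHEK2) every Dox array lay below, beside 10.4%. KAT5 had a difference of 0.51 (adjusted p = 0.598 in limma), with overlap after scaling to the hybridization controls. MDM4 was not analysed here. CHEK2, a kinase that phosphorylates p53 after DNA breaks, had 6.3, 7.0 and 6.1 in Dox-injected piglets, against 32.4, 15.2 and 15.6 in PBS-injected piglets. These CHEK2 signals are dim, but each lay above the Tag probe sets of its array, the groups did not overlap under any scaling tried, and the log2 difference was -1.61 with a standard error of 0.43 (adjusted p = 0.521 in limma). CHEK1, the kinase of the replication checkpoint, had 3.4, 5.8 and 4.6 in Dox-injected piglets, against 21.3, 5.9 and 10.9 in PBS-injected piglets. The CHEK1 difference was -1.31 (adjusted p = 0.521 in limma), with 2 arrays at the level of the Tag probe sets and with groups that overlapped after quantile, cyclic loess or median scaling. ATM, the kinase upstream of CHEK2, had a difference of -0.53 with overlapping groups, which was -0.04 without Dox replicate 3.

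NPM1, RPL11 and RPL5, which encode nucleolar and ribosomal proteins that hold MDM2 away from p53, had higher signals on every Dox array than on every PBS array as deposited, whereas RPL23, which encodes a further such protein, had overlapping groups and a log2 difference of 0.22. The log2 differences were 0.38 for NPM1 (adjusted p = 0.521 in limma), 0.38 for RPL11 (adjusted p = 0.537 in limma) and 0.32 for RPL5 (adjusted p = 0.546 in limma). For NPM1, RPL11 and RPL5 the difference was negative, between -0.15 and -0.09, after scaling to the hybridization controls. At quantile normalization the difference was 0.18 for NPM1, 0.06 for RPL11 and 0.06 for RPL5.

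The families of GADD45, BTG and sestrin proteins with their partners gave 12 measured genes of 21 listed, 7 above 0 and 5 below, with a median of 0.10, and 4 genes had an unadjusted p of at most 0.05, all with a higher signal in Dox-injected piglets, beside 4.92% of named genes, and of these GADD45G, GADD45GIP1 and PRKAA1 had overlapping groups. GADD45G, the remaining GADD45 gene, had 444.9, 1951.5 and 1956.5 in Dox-injected piglets, against 182.2, 656.7 and 537.8 in PBS-injected piglets. Dox replicate 1 and PBS replicate 1 were the lowest arrays of their groups, as for GADD45B and BTG2. The GADD45G log2 difference was 1.57 with a standard error of 0.65 (adjusted p = 0.521 in limma; exact permutation test, p = 0.3), and it was 2.29 without Dox replicate 1 and 1.01 without PBS replicate 1. The catalytic subunits of the energy sensor AMPK, a kinase activated by sestrins, had differences of 1.07 for PRKAA1 and 0.54 for PRKAA2 (adjusted p = 0.521 in limma for both). PRKAA2 had 921.0, 1486.7 and 1403.2 in Dox-injected piglets, against 758.8, 911.0 and 907.1 in PBS-injected piglets, without overlap as deposited and with overlap after quantile normalization. GADD45GIP1, which encodes a mitochondrial ribosome protein that binds GADD45 proteins, had a difference of 0.54 (adjusted p = 0.523 in limma). MAP2K6, a kinase of the p38 pathway on which GADD45 proteins act, had 9.7, 10.2 and 2.0 in Dox-injected piglets, against 13.3, 16.1 and 13.9 in PBS-injected piglets (log2 difference -1.30, adjusted p = 0.546 in limma), and the difference was -0.53 without Dox replicate 3, whose signal lay at the level of the Tag probe sets.

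The partners of BAX and PMAIP1 in the BCL2 family and its outlet were read from a list of 15 genes, of which 7 were measured. Their differences were above 0 in 5 and below 0 in 2, with a median of 0.22. The median was 0.17 without BAK1, which was at background on 4 of 6 arrays. At an unadjusted p of at most 0.05 in limma, 0 of 7 were higher, beside 4.92% of named genes. At such a p 0 of 7 were lower, beside 6.61%. MCL1, the survival protein that PMAIP1 binds, had 1783.3, 1546.1 and 1523.4 in Dox-injected piglets, against 1118.3, 1469.2 and 1512.7 in PBS-injected piglets. The lowest Dox array and the highest PBS array nearly met, the MCL1 difference was 0.25 with a standard error of 0.18 (adjusted p = 0.633 in limma), and it was negative after both scalings to controls or markers. The differences were 0.63 for BCL2L11 (BIM), 0.23 for BCL2L1 (BCL-XL), 0.11 for BID and -0.11 for BAD, with overlapping groups for each. For BCL2L11 the interval was wide, -0.72 to 1.98.

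**Figure D5:**
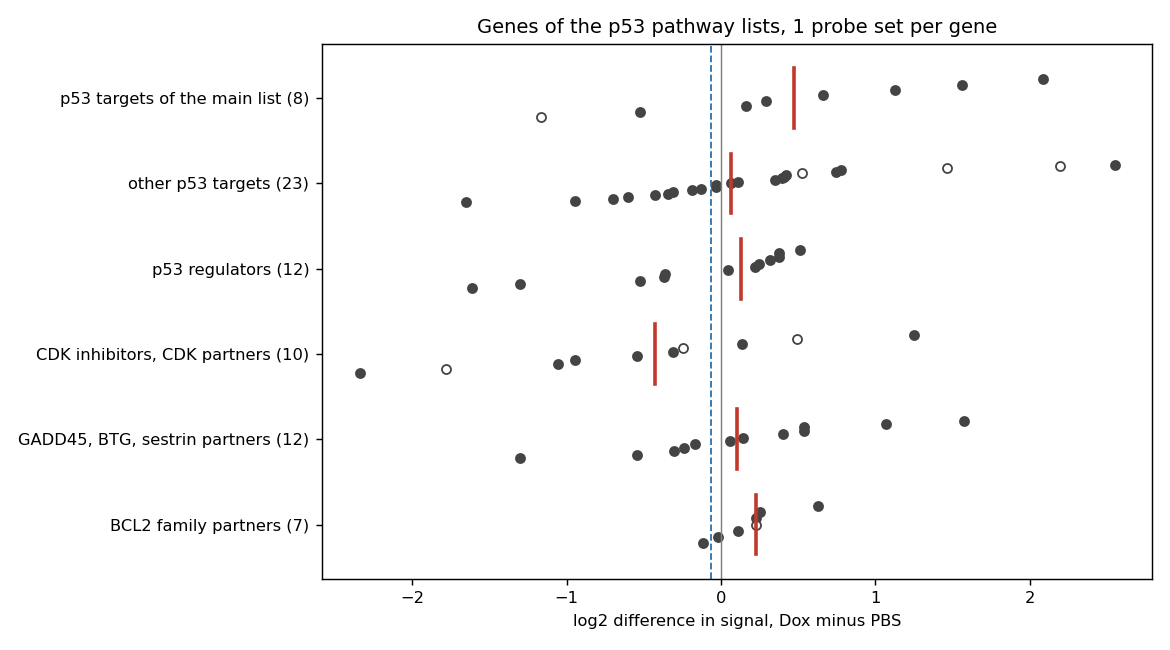
Log2 difference in signal, Dox minus PBS, of the genes of 6 lists around p53, with 1 probe set per gene; the number measured is in parentheses, open points have at least 4 of 6 signals at the level of the Tag probe sets, red bars are list medians and the dashed line is the median of all named genes. The median is 0.47 for the main list of p53 targets and -0.43 for the CDK inhibitors and partners of p21, and all lists spread to both sides of 0.

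The genes whose pattern over the 6 arrays was most like that of CDKN1A were sought among 6117 probe sets of named genes brighter than the median, as a description. Pearson's r of the log2 signals was at least 0.95 for 7 of them. The 5 closest were TMEM258 (r = 0.971), a subunit of the enzyme that N-glycosylates proteins, GPI (r = 0.970), an enzyme of glycolysis, DYNC1H1 (r = 0.964), the heavy chain of dynein, NUDT14 (r = 0.963), a UDP-glucose pyrophosphatase, and RER1 (r = 0.962), which retains proteins in the endoplasmic reticulum. NUDT14 had 100.7, 84.0 and 98.8 in Dox-injected piglets, against 51.5, 54.4 and 51.8 in PBS-injected piglets, a log2 difference of 0.84. For the other 4 the difference was between 0.17 and 0.31, smaller than for CDKN1A. With 6 arrays in 2 groups, such an r mainly reflects the split between the groups, and none of the p53 target genes listed was among the 5.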

How the data were processed

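RNA from the LV free wall was measured on 6 arrays, 1 per piglet, with the groups (3 Dox, 3 PBS) read from the labels of the samples. The deposited values are linear MAS5 signal intensities made by the authors in GCOS 1.4 at default settings, whose background correction and scaling were kept. Of 24123 probe sets, 124 array controls were left out. Signals of 0, found in 311 probe sets, were raised to 0.1 before log2. The group difference was fitted with limma 3.58.1 in R 4.3.3 (lmFit, eBayes with an intensity trend, no further normalization, no covariate). P values of 23999 probe sets were adjusted by Benjamini and Hochberg, and a call needed an adjusted p of at most 0.05 together with a fold of 2 or more. Single probe sets were also compared with exact two-sided permutation tests. Names came from the platform annotation, in which 10069 probe sets have 1 symbol, 198 several and 13732 none, and a gene was summarised at its probe set with the highest geometric mean over all arrays.

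The p53 target genes, the lists around them and the tests were chosen with earlier results of these data known, so counts over a list are a description. Every listed p53 target is named at all its probe sets, with the up to 5 genes of smallest unadjusted p of each further list and the 5 genes most like CDKN1A. CDKN1B, CDKN2D, RPL23, FAS, ATM and KAT5 were added after their values were seen, as was the use of the Tag probe sets (17 on the array) as a reference for dim signals. Alternatives were quantile, cyclic loess and median scaling, an offset of 16, a floor of 5, removal of dim probe sets, the replicate number as a block, array weights, eBayes with no trend, the methods' t-test, other thresholds, averaging the probe sets of each gene and leaving out each array. Scaling to the hybridization controls and to the cardiomyocyte markers was added after the values were seen. The scripts were tested on simulated data. Plots were made in Python 3.11.15 with matplotlib 3.10.9.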

Additional observations from a re-analysis of the deposited data

How the results depend on the processing

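CDKN1A, GADD45A, GADD45B, BTG2 and BAX kept their direction under every alternative that gave a value, and no p53 target gene passed the adjusted threshold under any of them. For CDKN1A the 20 alternatives gave log2 differences of 1.10 to 1.79, with adjusted p from 0.0866, without Dox replicate 1, to 0.823 in limma. The CCNG1 difference changed sign to -0.030 under quantile normalization, -0.012 under cyclic loess, -0.31 after scaling to the hybridization controls and -0.14 after scaling to the cardiomyocyte markers, and it ranged from -0.017, without Dox replicate 3, to 0.25 with 1 array left out. The SESN1 difference was -0.18 after scaling to the hybridization controls and -0.0061 after scaling to the cardiomyocyte markers, and it ranged from -0.0064, without Dox replicate 2, to 0.69 with 1 array left out. These causes were not tested. Over all probe sets the count of calls was 0, with 2290 at an unadjusted p of at most 0.05 in limma and 1719 in the methods' t-test on log2 signals. It was 2 when signals under 5 were raised to 5, and from 0 to 14 with 1 array left out, 14 being without Dox replicate 1, with 0 p53 target genes among the calls in both settings. Samples with the same replicate number did not deviate together (r of -0.01, 0.02 and -0.06 over 23999 probe sets). Such an r over all probe sets cannot settle whether the piglets were paired, and the paper describes the samples as pairs. With the replicate block the count of calls was 0 (2313 before adjustment) and the CDKN1A difference of 1.56 had an adjusted p of 0.285 in limma, and the block changed no call. In limma the unadjusted p with the block was 0.033 for GADD45A, 0.0064 for GADD45B and 0.0093 for BTG2. Without the block it was 0.13, 0.024 and 0.038. For SESN1 it was 0.40 with the block and 0.45 without, and for CDKN1A, BAX, CCNG1 and PMAIP1 it was larger with the block. PMAIP1 gave no value with the floor of 5, and BAX and PMAIP1 none under the filter on dim probe sets, because their signals are too low. The median of the regulator list was 0.017, against 0.13, and that of the BCL2 family list -0.0023, against 0.22, when all probe sets of a gene were averaged. The scaling itself moved the median log2 difference of all named genes, which was -0.07 as deposited, 0.16 after median centring, -0.36 after scaling to the cardiomyocyte markers and -0.53 after scaling to the hybridization controls.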

Other observations

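Among genes outside the p53 lists, several leukocyte and fibroblast markers also separated the groups, although 0 of them passed the adjusted threshold in limma. At an unadjusted p of at most 0.05 in limma, 3 of 9 leukocyte markers (S100A8, S100A9 and S100A12) were higher in Dox-injected piglets, beside 4.92% of named genes. At such a p 4 of 6 fibroblast markers were lower, beside 6.61%. The groups overlapped for the other leukocyte markers, with differences of -0.63 for AIF1, -0.24 for CD3E, 0.60 for CD14 and 0.57 for CD163. PTPRC and CD3D had 5 and 6 of 6 signals at the level of the Tag probe sets. S100A9, which encodes a calprotectin subunit of neutrophils and monocytes, had signals of 56.9, 681.5 and 185.9 in Dox-injected piglets, against 9.2, 7.8 and 27.5 in PBS-injected piglets. Every Dox array lay above every PBS array under all 6 scalings, and the log2 difference was 3.94, or 3.04 without Dox replicate 2 and 4.83 without Dox replicate 1. For its partner S100A8 the difference was 2.51, with 2 of 6 signals at the level of the Tag probe sets, and S100A12 had 4 of 6 signals there, so no fold is read. The 6 fibroblast markers measured all had a difference below 0, with a median of -1.01, or -0.62 when all probe sets of a gene were averaged. In 3 of them (COL1A2, DCN and POSTN) every Dox array lay below every PBS array, beside 10.4% of named genes. COL1A2 overlapped after quantile, cyclic loess or median scaling and POSTN after median centring, while DCN stayed apart under all scalings. POSTN, which encodes the matrix protein periostin, had a difference of -2.34, or -1.32 without Dox replicate 3 and -3.27 without Dox replicate 1.

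Signal at the 3' over that at the 5' GAPDH probe set, a measure of RNA integrity, was 1.55, 1.26 and 1.24 in Dox-injected and 1.28, 1.18 and 1.16 in PBS-injected piglets. Dox replicate 1, the Dox array with the lowest signals for GADD45A, GADD45B, GADD45G, BTG2 and ATF3, was the highest here, and its part in those signals was not tested. The same quotient for actin was 76.9, 29.6 and 32.6 in Dox-injected and 35.1, 121 and 62.4 in PBS-injected piglets, highest on PBS replicate 2.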
